A study of Bos grunniens x Bos taurus and Bos grunniens with 6 samples.

Results

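DAZL, BOLL, DAZAP1, DAZAP2, NANOS1, NANOS3 and PUM2 are 7 genes of the DAZ family, its associated proteins and the Pumilio-Nanos repressors, and they were taken by gene symbol, ignoring case, from a table of 18918 genes. Each symbol stood on a single gene, and the rule reads symbols alone. The question was how this group of RNA regulators differed between the testes of sterile hybrid and of fertile purebred males. Testis tissue was sequenced from 3 cattle-yak, the F1 sons of Jersey cattle bulls and Gannan yak cows, and from 3 Gannan yak, all males of 4 years. One library was made per animal, and the libraries are called C1 to C3 for cattle-yak and Y1 to Y3 for yak. The cattle-yak came from another county than the yak and were castrated, whereas the yak were euthanised, so that county, way of collection and genotype cannot be told apart. Reads of both groups had been mapped to the yak genome, and the paper reports a lower share of mapped reads in every cattle-yak than in every yak. The effect of this mapping on cattle alleles was not tested.

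DAZ family proteins bind the 3′ untranslated regions of germ cell mRNAs and recruit poly(A) binding protein, which favours translation. DAZL acts in spermatogonia and spermatocytes, and BOLL, the oldest member of the family, acts in meiosis and in spermatids. Pumilio proteins bind other motifs in 3′ untranslated regions and, with Nanos proteins, bring the CCR4-NOT deadenylase to the mRNA, which shortens its poly(A) tail and represses it. The group of genes thus holds both activators and repressors of translation.

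The expression unit was FPKM (fragments per length of the gene and per depth of the library), which permits levels of different genes to be compared. All 7 genes were above the minimum mean of 0.5 FPKM and entered the comparison of 15042 genes, which was made with limma on log2 (FPKM + 1). Called genes had an adjusted p (Benjamini-Hochberg over all genes tested) under 0.05 together with a log2 (foldchange) beyond 1 in either direction. NANOS1, NANOS3 and PUM2 were called higher in cattle-yak, and BOLL and DAZAP1 were called lower. DAZL and DAZAP2 had higher means in cattle-yak and passed the adjusted p but not the fold threshold. The called share was 3 of 7 higher and 2 of 7 lower, where 33.4% of all genes tested were called higher and 20.8% lower. All 7 genes passed the adjusted p, as did 81.9% of all genes, and the cattle-yak and yak libraries did not overlap for any of the 7, as for 84.1% of all genes. These counts were thus read as descriptions of the 7 genes, not as features particular to them.

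The median log2 (foldchange) of all genes was 0.51, with quartiles at -0.70 and 1.27, so a gene at 0.51 stood at the centre of the comparison. The lower level of BOLL and DAZAP1 held under every scaling tried. The higher level of the other 5 genes held as deposited, but all 5 were below 0 when the libraries were centred on 9 Sertoli cell markers, which moved the median of all genes to -1.64. NANOS1 was near 0 there (-0.10), and its sign was not examined at other pseudocounts. In whole tissue, fewer cells of a type and less RNA per cell cannot be told apart, and this applies to every value here.

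**Figure D1:**
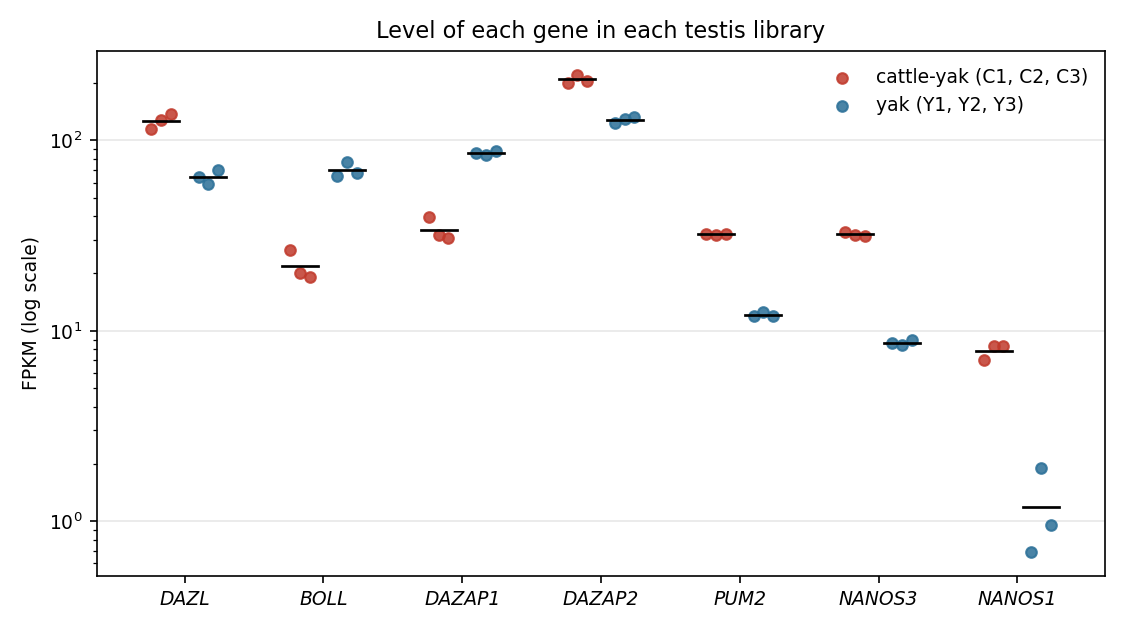
FPKM (log scale, vertical axis) of the 7 genes in each of the 6 libraries, with cattle-yak and yak as separate colours, 1 point per animal and a bar at each group's mean. No gene shows overlap between the groups, and NANOS1 in yak, from 0.690 to 1.90 FPKM, has the widest relative spread.

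DAZL (ENSBGRG00000000174), the autosomal founder of the DAZ genes, is needed for germ cells to enter meiosis. C1, C2 and C3 had levels of 115, 128 and 138 FPKM, and Y1, Y2 and Y3 had 64.2, 59.1 and 69.9 FPKM. Every cattle-yak was above every yak, and C1 was the lowest of the hybrids. The means were 127 ± 11.9 (SD, n = 3) and 64.4 ± 5.42 (SD, n = 3) FPKM, a ratio of 1.97. On the log2 scale the difference was 0.97 (95% interval 0.72 to 1.22, SE 0.11, limma adjusted p = 5.5e-05), just under the fold threshold. It passed that threshold when C1 was left out (1.04) and when Y3 was left out (1.03). With median-of-ratios scaling it was 0.35, and with the Sertoli-centred values it was -1.19.

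BOLL (ENSBGRG00000000262) ran the other way. The hybrids C1, C2 and C3 had levels of 26.5, 20.1 and 19.2 FPKM, and Y1, Y2 and Y3 had 64.9, 77.3 and 67.7 FPKM. All 3 hybrids were far below all 3 yak, and C1 was the highest of the hybrids. The means were 21.9 ± 3.98 (SD, n = 3) and 70.0 ± 6.50 (SD, n = 3) FPKM, which was 3.19-fold lower in cattle-yak. The log2 (foldchange) was -1.64 (95% interval -1.96 to -1.31, SE 0.14, limma adjusted p = 1.2e-05).

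The balance of the pair of DAZ family members differed between the groups. DAZL made up 81.2%, 86.4% and 87.8% of the summed DAZL and BOLL FPKM in C1, C2 and C3. In yak its share was 49.7%, 43.3% and 50.8%, so that the family was divided about evenly and the order of the genes depended on the animal, with DAZL above BOLL in Y3 alone. The sum itself was 149 ± 8.32 FPKM (SD, n = 3) for the hybrids and 134 ± 4.59 (SD, n = 3) for the yak. The log2 ratio of BOLL to DAZL was -2.49 ± 0.37 (SD, n = 3) for the hybrids and 0.12 ± 0.23 (SD, n = 3) for the yak. The groups did not overlap and differed by -2.61 (exact permutation test over the 10 splits of the animals, two-sided, p = 0.1, adjusted p = 0.13 over 9 ratios). With 3 animals against 3 this test cannot go below 0.1. Such ratios within a library do not depend on a scaling between libraries, apart from the pseudocount.

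Markers of germ cell stages were set beside these genes. The FPKM of 10 spermatocyte markers summed to 388, 219 and 374 in C1, C2 and C3 and to 300, 314 and 352 in Y1, Y2 and Y3, with overlap of the groups. Of these, 1 of 10 was called higher and none lower, while 0 were higher and 3 lower with median-of-ratios scaling, and 10 lower with the Sertoli-centred values. The 7 round spermatid markers, by contrast, summed to 4.95 to 27.8 FPKM in cattle-yak and 671 to 729 in yak, and 7 of 7 were called lower. The 6 elongating spermatid markers summed to 18.3 to 85.9 FPKM in cattle-yak and 9060 to 11020 in yak, with 6 of 6 lower, and no marker of these lists was at 0 in all libraries of a group. C1, the hybrid with the most BOLL and the least DAZL, had the highest sums of both spermatid lists among the hybrids. It also had the highest spermatocyte sum and the lowest spermatogonia sum of the hybrids, and this rests on 1 animal. For the spermatogonia, 8 of 10 tested markers were called higher (7 with median-of-ratios scaling, and 0 higher and 2 lower with the Sertoli-centred values), with sums of 368 to 439 FPKM in cattle-yak and 90.4 to 108 in yak. The 2 called lower, GFRA1 and FGFR3, had means of 2.34 and 2.74 FPKM in cattle-yak and 0.675 and 1.07 in yak. A pseudocount of 1 understates changes of such low genes, so these 2 calls are uncertain. The part of cell composition in the values of DAZL and BOLL was not tested.

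**Figure D2:**
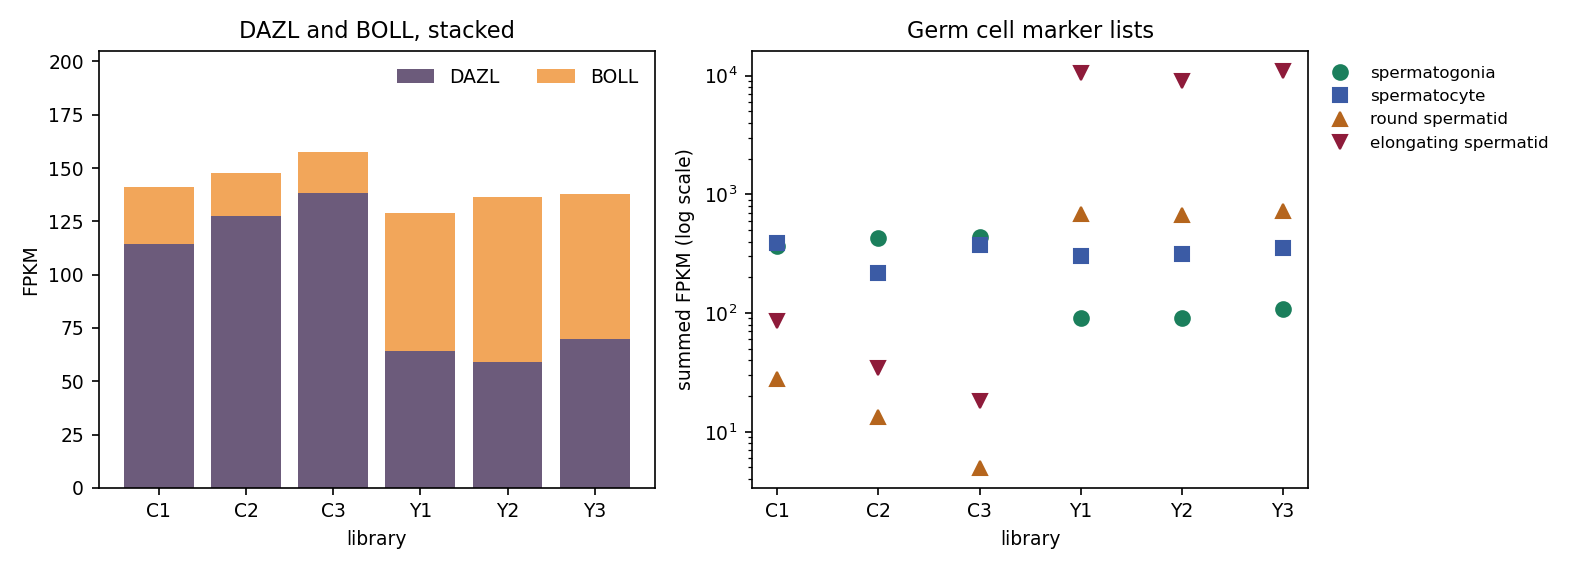
Left, FPKM of DAZL and BOLL stacked per library, from 129 FPKM in Y1 to 158 in C3. Right, summed FPKM (log scale) of the germ cell marker lists per library, where the spermatid lists separate the groups, the spermatocyte list overlaps, and DAZL's larger part in the cattle-yak bars is seen beside them.

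Set against the mean log2 level of the spermatocyte markers, BOLL stood at 0.02 ± 0.30 (SD, n = 3) for the hybrids and at 1.54 ± 0.18 (SD, n = 3) for the yak. The groups did not overlap and differed by -1.52 (exact permutation test, two-sided, p = 0.1, adjusted p = 0.13). Against the round spermatid markers, BOLL was higher by 3.39 in cattle-yak than in yak (exact permutation test, two-sided, p = 0.1, adjusted p = 0.13), since the markers differed more than BOLL did, and by 4.78 and 5.48 at pseudocounts of 0.1 and 0.01. DAZL differed from the spermatocyte list by 2.51 ± 0.44 (SD, n = 3) for the hybrids and by 1.42 ± 0.07 (SD, n = 3) for the yak. Against the spermatogonia list, its ratio was 2.99 ± 0.10 (SD, n = 3) for the hybrids and 3.66 ± 0.05 (SD, n = 3) for the yak, so DAZL was lower in the hybrids on that measure, though higher in FPKM. That difference of -0.68 was -1.04 and -1.27 at pseudocounts of 0.1 and 0.01. Neither of these ratios overlapped between the groups (exact permutation test, two-sided, p = 0.1 and adjusted p = 0.13 for each).

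DAZAP1 and DAZAP2 are proteins that bind DAZ proteins. DAZAP1 (ENSBGRG00000015677) is an RNA-binding protein that takes part in splicing and translation and is needed for spermatogenesis in mice. Levels in C1, C2 and C3 were 39.4, 31.9 and 30.6 FPKM, and Y1, Y2 and Y3 had 85.8, 83.8 and 87.7 FPKM. The yak values lay close together, with a coefficient of variation of 2.30%, and the hybrids were all lower with C1 highest, as for BOLL. The counting interval (exact Poisson, 95%, counting error only) was 82.3 to 89.4 FPKM in Y1, 80.4 to 87.3 in Y2 and 84.2 to 91.4 in Y3. These intervals overlapped, so the small spread in yak is no measure of steadiness. The mean was 2.53-fold lower in cattle-yak, at 33.9 ± 4.74 (SD, n = 3) against 85.8 ± 1.97 (SD, n = 3) FPKM. The log2 (foldchange) was -1.32 (95% interval -1.58 to -1.06, SE 0.11, limma adjusted p = 1.2e-05).

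DAZAP2 (ENSBGRG00000004487), a small proline-rich protein of many tissues, was the most abundant of the 7 genes in every library. C1, C2 and C3 had levels of 201, 222 and 206 FPKM, and Y1, Y2 and Y3 had 123, 130 and 132 FPKM. The hybrids were all above the yak, by a ratio of 1.63 of the means of 210 ± 10.7 (SD, n = 3) and 128 ± 4.64 (SD, n = 3) FPKM. The log2 (foldchange) of 0.70 (95% interval 0.50 to 0.90, limma adjusted p = 9.4e-05) was 0.19 above the median of all genes and was not called. With median-of-ratios scaling it was 0.09 (limma adjusted p = 0.39), and with the Sertoli-centred values it was -1.45. The limma adjusted p under the other alternatives ran from 4.7e-05 to 7.4e-04.

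As for the DAZ genes, the balance of the associated proteins differed. DAZAP1 made up 16.4%, 12.6% and 13.0% of the summed DAZAP1 and DAZAP2 FPKM in C1, C2 and C3. In Y1, Y2 and Y3 it made up 41.1%, 39.3% and 39.9%. The log2 ratio of DAZAP1 to DAZAP2 was lower by 2.02 in cattle-yak, without overlap (exact permutation test, two-sided, p = 0.1, adjusted p = 0.13). In both pairs, 1 gene was called lower in the hybrids and the other had a higher FPKM there without being called.

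**Figure D3:**
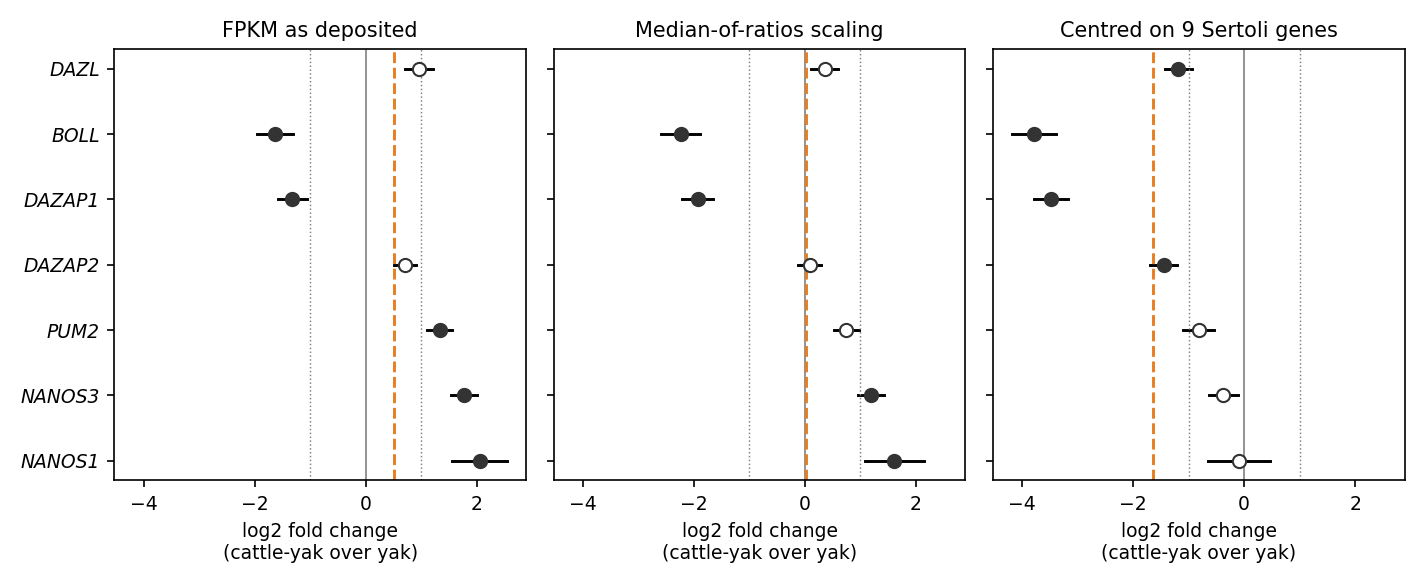
Log2 (foldchange) of cattle-yak over yak with 95% intervals from limma for the 7 genes (horizontal axis, filled points called and open points not called), as deposited, with median-of-ratios scaling and centred on 9 Sertoli genes, with dotted lines at 1 and -1 and a dashed line at the median of all genes. As deposited the genes run from BOLL at -1.64 to NANOS1 at 2.06, BOLL and DAZAP1 are lower in all 3 panels, and the other 5 genes are below 0 in the Sertoli-centred panel. There the interval of NANOS1 crosses 0.

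The Nanos genes encode zinc finger proteins that act with Pumilio. NANOS3 (ENSBGRG00000021964) keeps primordial germ cells alive and is found in spermatogonia after birth. The hybrids C1, C2 and C3 had levels of 33.1, 31.9 and 31.4 FPKM, and Y1, Y2 and Y3 had 8.64, 8.47 and 8.93 FPKM. The groups lay far apart, with a coefficient of variation of 2.70% in cattle-yak and 2.67% in yak. Counting error alone was wider than these spreads. The counting interval (exact Poisson, 95%) was 29.5 to 37.0 FPKM in C1 and 6.95 to 10.6 in Y1. The means of 32.1 ± 0.87 (SD, n = 3) and 8.68 ± 0.23 (SD, n = 3) FPKM gave a ratio of 3.70. The log2 (foldchange) was 1.78 (95% interval 1.54 to 2.01, SE 0.10, limma adjusted p = 1.3e-06), called higher also with median-of-ratios scaling (1.20) and at -0.38 with the Sertoli-centred values.

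Against the spermatogonia markers, the log2 ratio of NANOS3 was 1.04 ± 0.20 (SD, n = 3) for the hybrids and 0.91 ± 0.08 (SD, n = 3) for the yak. These ranges overlapped and the difference was 0.13 (exact permutation test, two-sided, p = 0.6, adjusted p = 0.6), with a change of sign to -0.14 at a pseudocount of 0.1. The median log2 (foldchange) of the spermatogonia list was 1.78, the same value as that of NANOS3.

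NANOS1 (ENSBGRG00000019738) had the lowest level of the 7 genes in every library. C1, C2 and C3 had levels of 6.99, 8.32 and 8.31 FPKM, and Y1, Y2 and Y3 had 0.690, 1.90 and 0.960 FPKM. The hybrids were all above the yak, and Y2 stood above the other yak. These values rested on 73, 82 and 85 fragments in cattle-yak and on 8, 22 and 11 in yak. The counting interval (exact Poisson, 95%, counting error only) was 0.298 to 1.36 FPKM in Y1, 1.19 to 2.88 in Y2 and 0.479 to 1.72 in Y3, so the yak intervals overlapped. The ratio of the means, 7.87 ± 0.76 (SD, n = 3) over 1.18 ± 0.64 (SD, n = 3) FPKM, was 6.65. The log2 (foldchange) was 2.06 (95% interval 1.56 to 2.56, SE 0.22, limma adjusted p = 3.8e-05), and the pseudocount of 1 understated it, with 2.74 at a pseudocount of 0.1. With the Sertoli-centred values it was -0.10 (limma adjusted p = 0.72), while the limma adjusted p under the other alternatives ran from 3.9e-05 to 3.9e-04. The Sertoli-centred values used a pseudocount of 1 alone, which understates NANOS1, so the sign of -0.10 is uncertain.

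Within the libraries NANOS1 made up 17.5%, 20.7% and 20.9% of the summed NANOS1 and NANOS3 FPKM in C1, C2 and C3. In Y1, Y2 and Y3 it made up 7.40%, 18.4% and 9.71%, and Y2 was above C1. The log2 ratio of the pair did not separate the groups (difference 0.28, exact permutation test, two-sided, p = 0.4, adjusted p = 0.45). The difference was 0.87 at a pseudocount of 0.1, in the same direction. Unlike the DAZ pair, both genes of the Nanos pair were called higher in cattle-yak in FPKM. Both were below 0 with the Sertoli-centred values, NANOS1 with an uncertain sign.

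PUM2 (ENSBGRG00000020491) is an RNA-binding repressor of the Pumilio type that interacts with DAZ proteins and with Nanos. Levels in C1, C2 and C3 were 32.3, 31.9 and 32.2 FPKM, and Y1, Y2 and Y3 had 12.0, 12.5 and 11.9 FPKM. PUM2 had the smallest spread of the 7 genes among the hybrids, with a coefficient of variation of 0.64%, and the groups were far apart. The counting interval (exact Poisson, 95%, counting error only) was 30.5 to 34.1 FPKM in C1 and 30.1 to 33.8 in C2. So small a spread is thus below counting error and is no measure of steadiness. The means of 32.1 ± 0.20 (SD, n = 3) and 12.1 ± 0.33 (SD, n = 3) FPKM gave a ratio of 2.65. The log2 (foldchange) was 1.33 (95% interval 1.11 to 1.56, SE 0.10, limma adjusted p = 4.6e-06). With median-of-ratios scaling it was 0.75 and no longer past the fold threshold, and with the Sertoli-centred values it was -0.82.

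**Figure D4:**
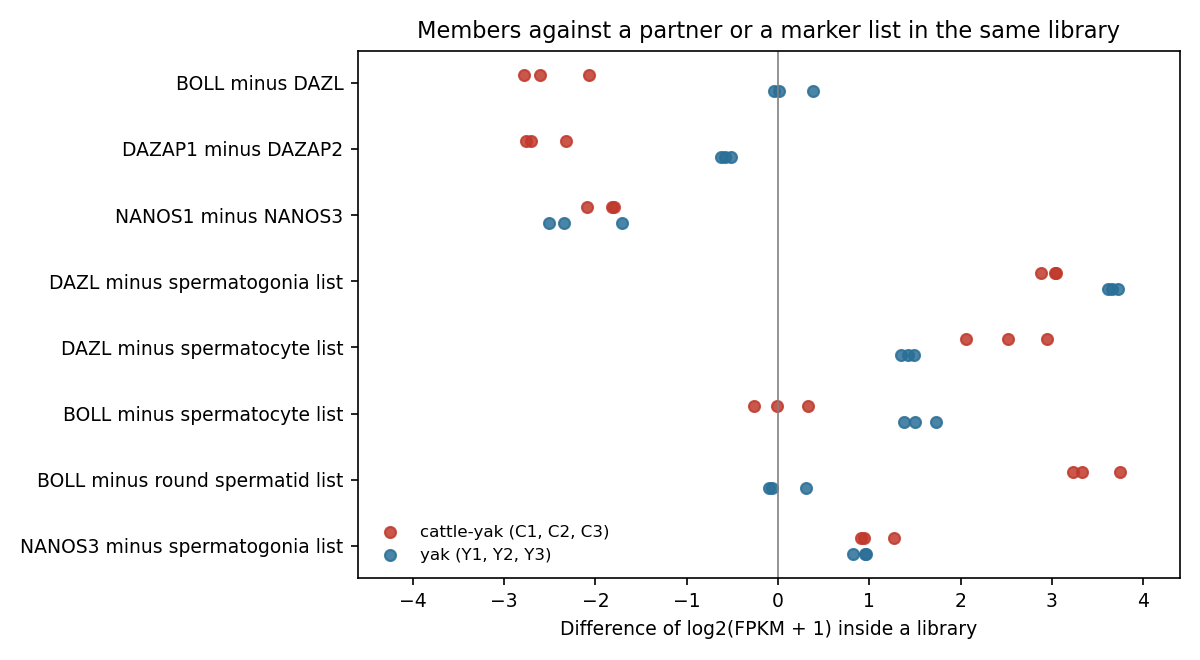
Log2 ratios within each library (horizontal axis, difference of log2 (FPKM + 1)) between members or between a member and the mean of a marker list, with 1 point per animal. The groups are apart for 6 of the 8 ratios drawn and overlap for NANOS1 to NANOS3 and for NANOS3 to the spermatogonia list. Single genes were apart for 84.1% of all genes tested, and the share for ratios of other genes was not computed.

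The order of the levels differed between the groups. In cattle-yak DAZAP2 was above DAZL in every animal, DAZAP1, NANOS3 and PUM2 lay between 30.6 and 39.4 FPKM in an order that differed between the animals, and BOLL and NANOS1 were the lowest. In yak DAZAP2 was above DAZAP1 in every animal, BOLL and DAZL followed with overlapping ranges, and PUM2, NANOS3 and NANOS1 came below them in that order in all 3 animals. Among all genes of the table, NANOS3 stood at percentile 79.97 of the levels in cattle-yak and at 58.1 in yak, whereas BOLL stood at 72.1 and 90.0. PUM2 and NANOS3 had the same mean of 32.1 FPKM in cattle-yak but not in yak.

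Of 34 other genes of this network, 33 were tested, and 9 were called higher and 6 lower (27.3% and 18.2%, beside 33.4% and 20.8% of all genes). With median-of-ratios scaling 4 of them were called higher and 9 lower, and with the Sertoli-centred values none was called higher by limma and 26 lower. The 26 include genes near or under 1 FPKM, such as NANOS2, whose changes the pseudocount of 1 understates, so their calls are uncertain. Their median log2 (foldchange) of 0.51 was that of all genes. Of the Pumilio and Nanos relatives, DND1, a germ cell protein that works with Nanos, was called higher at 15.6 against 4.23 FPKM (log2 (foldchange) 1.66, and -0.49 with the Sertoli-centred values). PUM3 (0.96) was not called, nor was NANOS2, whose values of 0 to 1.93 FPKM overlapped between the groups (0.63, limma adjusted p = 0.08).

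Of the 11 CCR4-NOT genes, 3 were called higher and 1 lower, beside 33.4% and 20.8% of all genes. CNOT6L and CNOT6, alternative catalytic deadenylases, had log2 (foldchange) values of 1.83 and 1.38, and CNOT9, a subunit that binds repressors, had 1.51. All 3 were below 0 with the Sertoli-centred values, and only CNOT6L was still called with median-of-ratios scaling. CNOT4, a ubiquitin ligase, was called lower (-1.11). The scaffold CNOT1, at 88.4 to 103 FPKM in cattle-yak and 134 to 176 in yak, had -0.71 and CNOT10 had -0.73, and neither passed the fold threshold as deposited. Both were called lower with median-of-ratios scaling (-1.32 and -1.33), when 1 gene of the list was called higher and 3 lower, and also with the Sertoli-centred values.

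Of the 11 genes of poly(A) binding and cytoplasmic polyadenylation, 1 was called higher and 4 lower, beside 33.4% and 20.8% of all genes. PABPC1, the poly(A) binding protein that DAZL recruits, was at 328, 286 and 277 FPKM in C1, C2 and C3 and at 964, 1052 and 911 in Y1, Y2 and Y3 (log2 (foldchange) -1.71). PABPC4, another poly(A) binding protein, was at 306, 425 and 417 FPKM in cattle-yak and at 86.3, 89.2 and 112 in yak (1.98, and -0.17 with the Sertoli-centred values). PABPC1 was above PABPC4 in C1 and in all yak, and PABPC4 was above PABPC1 in C2 and C3. PABPC1 and PABPC4 each stood on another gene as well, so their fragments could be divided, and both values are uncertain. The other PABPC1 gene had means of 5.21 FPKM in cattle-yak and 17.6 in yak (-1.59, called lower). The other PABPC4 gene, not tested, had 0.187 in cattle-yak and 0.0329 in yak.

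CPEB3 was lower with 2.32 against 37.0 FPKM (-3.52) and CPEB2 with -1.72, both of which bind cytoplasmic polyadenylation elements. PAIP2B, an inhibitor of poly(A) binding protein, was lower as well (-1.75). Among the others, CPEB1, the CPEB of oocyte maturation, was not called (0.42), and neither was TENT2, a cytoplasmic poly(A) polymerase (0.70).

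The zinc finger proteins that interact with DAZ differed among themselves. DZIP1, which also acts at the base of cilia, was at 11.9, 12.9 and 9.87 FPKM in C1, C2 and C3 and at 98.4, 85.5 and 88.7 in Y1, Y2 and Y3, and was called lower (-2.87). DZIP3, a ubiquitin ligase, was called higher as deposited (1.15), but not with median-of-ratios scaling (0.61), and was called lower with the Sertoli-centred values (-1.01), and DZIP1L was not called (0.77).

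Of the mRNAs known as targets of DAZL or Pumilio, 3 of 4 tested were called higher as deposited, beside 33.4% of all genes. With median-of-ratios scaling CDKN1B alone was called higher. CDKN1B, a cell cycle inhibitor, was at 33.5, 39.0 and 41.0 FPKM in C1, C2 and C3 and at 5.72, 6.59 and 6.81 in Y1, Y2 and Y3, with a log2 (foldchange) of 2.40 that stayed above 0 with the Sertoli-centred values (0.24, limma adjusted p = 0.11, not called). E2F3, a cell cycle factor, had 1.28 and SYCP3, of the synaptonemal complex and also in the spermatocyte list, had 1.10, and both were below 0 with those values. With median-of-ratios scaling E2F3 had 0.84 and SYCP3 had 0.49, neither of them called. TEX19, whose symbol stood on another gene as well, was not called (0.23), and DDX4 was not analysed here.

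**Figure D5:**
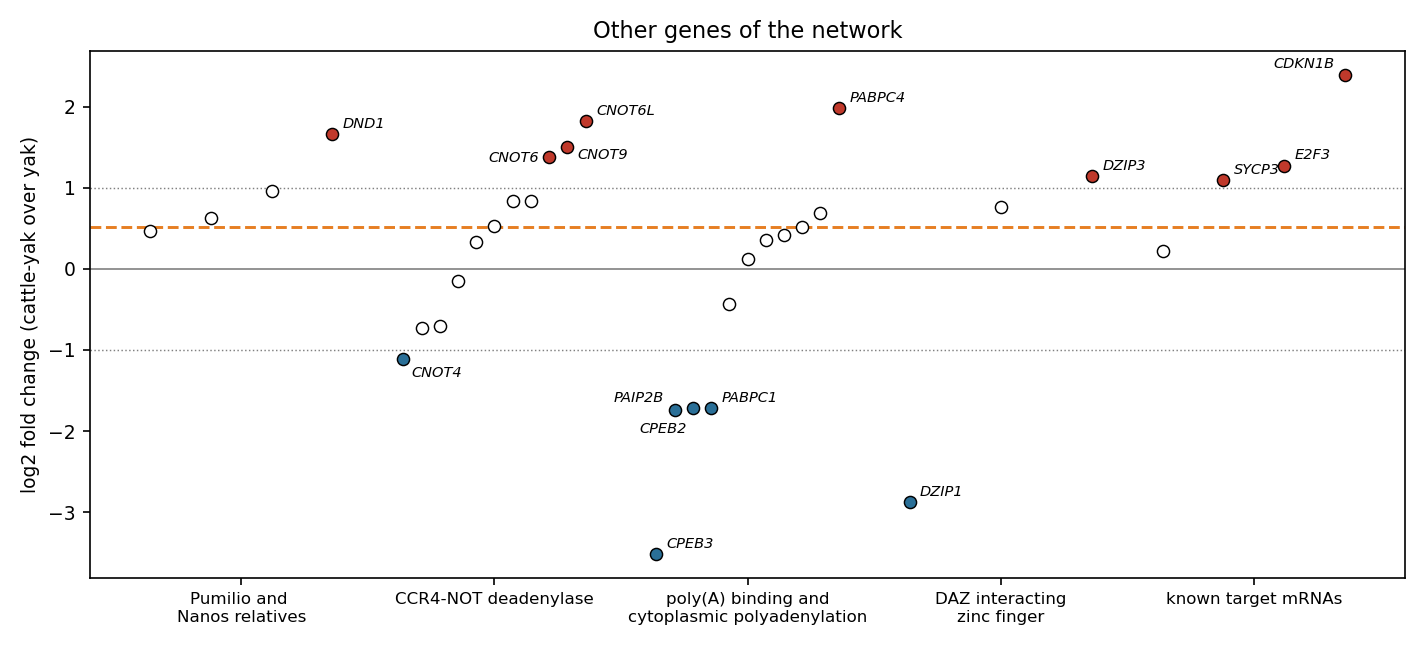
Log2 (foldchange) of cattle-yak over yak (vertical axis) for 33 tested genes in 5 lists around the DAZ, Pumilio and Nanos genes, with called genes filled and named, lines at 1 and -1, and a dashed line at the median of all genes. Values run from CPEB3 at -3.52 to CDKN1B at 2.40, and with Sertoli-centred values CDKN1B alone of the genes called higher kept a value above 0.

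For each of the 7 genes, the genes with the nearest profile over the 6 libraries were found from the Euclidean distance of the log2 values centred on each gene's mean. CREB3L1 was nearest to PUM2 at a distance of 0.0549, and HACD2 was nearest to DAZAP2 at 0.0668. MAK16 was nearest to DAZL (0.0761), HMGXB3 to NANOS3 (0.0863), LMBR1L to DAZAP1 (0.108) and WBP11, a symbol on 2 genes, to BOLL (0.136). NANOS1 had no gene so near, and PDCL3 at 0.245 was the nearest to it. The second nearest were FGB for DAZL, TEX264 for BOLL, RAB19 for DAZAP1, PRPF4 for DAZAP2, CD9 for NANOS1, ARHGEF12 for NANOS3 and FCGBP for PUM2. With 2 groups of 3 such profiles mostly carry the group difference, and within a distance of 0.25 DAZAP2 had 292 genes, PUM2 262, DAZL 192, NANOS3 179, DAZAP1 47, BOLL 39 and NANOS1 1.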

How the data were processed

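Testis mRNA of 3 cattle-yak and 3 yak was sequenced, 1 library per animal. The methods of the paper name Trimmomatic for trimming the paired-end reads of 150 bases, HISAT2 for mapping to LU_Bosgru_v3.0, a yak assembly, Cufflinks for FPKM, HTSeq for counts and DESeq for the authors' own test. The FPKM values deposited by the authors are per gene length and per library depth, with no scaling between libraries. Versions are not given in the sources used here.

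For 17973 genes the steps between FPKM values gave whole fragments, within 0.03 of a whole number. The depth was 11175100 to 11834987 fragments in cattle-yak and 12991641 to 13136129 in yak, so 1 fragment on 1 kb was 0.0761 to 0.0895 FPKM. Genes with a mean of at least 0.5 FPKM (15042 of 18918) were tested two-sided with limma 3.58.1 (lmFit, eBayes with a variance trend) in R 4.3.3 on log2 (FPKM + 1), which understates changes of low genes. The Benjamini-Hochberg adjustment ran over all of them. The recovery of fragments and the limma step were run on simulated data. For limma those data held few changed genes, in random directions. They could thus not examine a shift of many genes like the one here. Ratios were compared with exact permutation tests in Python 3.11.15 (numpy 2.4.6, pandas 2.3.3, scipy 1.17.1), with matplotlib 3.10.9 for figures.

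The named genes are the 7 members, the called genes of 5 network lists with the 2 largest and 2 smallest values of each list, and the 2 nearest profiles of each member. CNOT1 and CPEB1 were named after their values were seen. The members and all lists were chosen with earlier results of these data known. The network lists and 9 marker lists came from textbook knowledge. Alternatives were pseudocounts of 0.1 and 0.01, no minimum, a minimum of 5 FPKM, median-of-ratios scaling, TPM, Sertoli-centred values (each library's log2 values shifted by the mean of the Sertoli list), no trend, voom in limma on the recovered fragments, and leaving out each animal. Animal numbers were given in accession order and pair nothing. Chromosome positions and sequences were not used here, and the results of 1 gene of the lists, with the ratio that held it, are not reported here.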

Additional observations from a re-analysis of the deposited data

How the results depend on the processing

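Of 104 alternative values of the members' log2 (foldchange), 96 kept their direction and stayed called or not called. One of these, DAZAP2 with median-of-ratios scaling, no longer passed the adjusted p (limma adjusted p = 0.39). The exceptions came from scaling and from leaving out animals. Median-of-ratios scaling moved the split of all genes from 5023 higher and 3136 lower to 2655 higher and 4173 lower, put PUM2 at 0.75, under the fold threshold, and left 4 network genes called higher and 9 lower. With Sertoli-centred values 38 genes were higher and 10739 lower. With those values no member had a log2 (foldchange) above 0 at any p, so 0 were called higher by limma and 4 lower (DAZL, BOLL, DAZAP1 and DAZAP2), and of the network genes 26 were called, 0 higher and 26 lower, with CDKN1B alone of the 9 genes called higher as deposited still above 0. DAZL was at -1.19, DAZAP2 at -1.45, NANOS1 at -0.10, NANOS3 at -0.38 and PUM2 at -0.82. This setting takes the Sertoli markers as equal between groups, and whether they were was not tested. It was run at a pseudocount of 1 alone, which understates changes of genes near or under 1 FPKM before the shift is taken off. The counts called lower, of all genes and of network genes, include such genes. An example is NANOS2, at -1.52 with means of 1.05 FPKM in cattle-yak and 0.307 in yak. The calls of such genes are thus uncertain, and so is the sign of NANOS1.

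When each animal was left out, DAZL ranged from 0.90 to 1.04, BOLL from -1.78 to -1.56, DAZAP1 from -1.43 to -1.25, DAZAP2 from 0.66 to 0.73, NANOS1 from 1.89 to 2.28, NANOS3 from 1.76 to 1.79 and PUM2 from 1.32 to 1.35. DAZL passed the fold threshold without C1 and without Y3. NANOS1 gave 2.85 at a pseudocount of 0.01 and 2.81 with voom, and it was not tested at a minimum of 5 FPKM. At a pseudocount of 0.01 the ratio of BOLL to the round spermatid list differed by 5.48, of DAZL to the spermatogonia list by -1.27, of NANOS1 to NANOS3 by 0.96 and of NANOS3 to the spermatogonia list by -0.36. These ratios hold genes near or under 1 FPKM, whose changes a pseudocount of 1 understates. Examples are NANOS1 in yak (0.690 to 1.90 FPKM), SUN5 in cattle-yak (0.0785 to 0.445) and LIN28A of the spermatogonia list (0 to 0.724). Depth limits NANOS1 in yak most, with 8 to 22 fragments. No paired analysis was possible because the labels carry no animal numbers shared between the groups.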

Other observations

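The deposited table gives GO terms per gene, and those that at least 2 of the 7 genes carried were listed after the values had been seen. Some of them are given here, and the counts of each term include the members that carried it. DAZL, BOLL, DAZAP1 and PUM2 carried mRNA 3'-UTR binding, for which 23 of 70 tested genes were called higher (32.9%) and 13 lower (18.6%), beside 33.4% and 20.8% of all genes, with a median log2 (foldchange) of 0.63 beside 0.51 for all genes. DAZL, BOLL, DAZAP1 and NANOS3 carried spermatogenesis, for which 56 of 289 genes were called higher (19.4%) and 131 lower (45.3%), with a median of -0.71. BOLL and DAZAP1 were on the side of the 131, and DAZL and NANOS3 were not. NANOS3 and PUM2 shared regulation of translation, for which 18 of 47 genes were called higher (38.3%) and 2 lower (4.26%), and NANOS1 and NANOS3 shared negative regulation of translation, with 24 of 59 higher (40.7%) and 7 lower (11.9%). The same 2 genes shared positive regulation of deadenylation-dependent mRNA decay, with 6 of 17 higher (35.3%) and 5 lower (29.4%). NANOS1 and NANOS3 are themselves 2 of those 6. RNA binding, carried by DAZAP1, NANOS1, NANOS3 and PUM2, had 246 of 757 higher (32.5%) and 88 lower (11.6%). DAZL and BOLL shared translation activator activity, for which 1 of 10 genes was called higher and 2 lower, with BOLL among the 2. These are FPKM as deposited, and with Sertoli-centred values 38 genes in all were called higher.

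Somatic cell markers also moved with the groups. The 9 Sertoli, 6 Leydig and 5 myoid cell markers tested were all called higher in cattle-yak, with median log2 (foldchange) values of 2.22, 1.98 and 1.92. The endothelium and macrophage lists went both ways, with 2 of 5 higher and 1 lower (VWF, -1.85) and with 2 of 4 higher and 1 lower (AIF1, -3.78). With median-of-ratios scaling 8 Sertoli, 5 Leydig and 5 myoid markers were called higher and none of the endothelium or macrophage markers. NANOS1 at 2.06 lay between the Sertoli and the Leydig medians and NANOS3 at 1.78 just under the myoid median, while PUM2 (1.33) and DAZL (0.97) lay below all 3. The pseudocount of 1 understates NANOS1, which had 2.74 at a pseudocount of 0.1. The medians were taken at a pseudocount of 1 alone, so the place of NANOS1 among them is uncertain. The part of somatic cells in these values was not tested.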
